A study of Mus musculus with 15 samples.

Results

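The collagen genes were followed in gonocytes, the male germ cells of the foetal testis, sorted at E16.5 from control and Tex15-deficient mice. They are all genes whose symbol is Col, a number, the letter a and a number, which gave 44 of the 54838 genes in the count tables. They comprise 11 fibrillar collagens, 6 chains of type IV collagen and 27 others, of which 6 are type VI chains, 9 are fibril-associated, 4 are transmembrane, 3 form the networks of types VIII and X, 2 are the multiplexins of types XV and XVIII, 1 is type VII and 2 are types XXVI and XXVIII. The rule that picks the genes uses no measured value, but the family was chosen with earlier results of these data known.

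Tex15 encodes a nuclear protein needed for piRNA-directed DNA methylation of transposable elements, and the libraries were made to compare transcripts of gonocytes with and without it. The control group was Tex15+/-; Miwi2 tdTom/+ and the other group was Tex15-/-; Miwi2 tdTom/+, with 3 libraries each. Every library thus carried 1 Miwi2 allele with a tdTomato reporter, and cells were dissociated with trypsin and sorted by flow cytometry on that reporter. The knockout was a CRISPR-Cas9 allele in a line from 1 founder on a mixed B6CBAF1/Crl and C57BL/6N background, and the RNA was total RNA depleted of ribosomal RNA. The libraries held between 4893265 and 5697020 reads assigned to genes. Tex15 itself had 8183, 8315 and 9082 reads in the controls and 2338, 1267 and 1310 in Tex15-/- 1, 2 and 3. Germ cell markers, a list of 15 genes with Ddx4, Dazl and Piwil4 among them, summed to 4849, 4538 and 4658 CPM (counts scaled to the library size, with TMM factors) in the controls and to 4529, 4651 and 4719 in Tex15-/- 1, 2 and 3. The 3 Tex15-/- libraries did not form a uniform group in what follows, so each is given beside the group comparison.

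Collagens are trimers of α chains wound into a triple helix. Fibrillar collagens, above all types I and III, are laid down by fibroblast-like cells of the interstitium, while type IV collagen forms the sheet of the basement membrane that surrounds the testis cords and the vessels. In the foetal testis germ cells lie inside the cords, and the cord basement membrane is known as a product of Sertoli and peritubular myoid cells.

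Col3a1, the single chain of type III collagen, and Col1a2, the α2 chain of type I collagen, had the largest fold differences among the collagens. Col11a1, a minor fibrillar chain, stayed near the control level in 2 of the 3 Tex15-/- libraries. Their promoters are printed for that contrast, chosen after the values were seen, as the 250 bases before the RefSeq start in GRCm38.p6, in the direction of the gene. The windows are chr1:45311288-45311537, chr6:4505368-4505617 and chr3:114030290-114030539, all on the plus strand. The Col1a2 window lies inside the annotated span of that gene, which starts at chr6:4504814, upstream of the RefSeq start. The Col3a1 and Col11a1 windows end just before theirs. Capitals mark the CCAAT motif, the GC box as GGGCGG and the TATA box as TATAAA, each searched on both strands and none overlapping another.
Col3a1: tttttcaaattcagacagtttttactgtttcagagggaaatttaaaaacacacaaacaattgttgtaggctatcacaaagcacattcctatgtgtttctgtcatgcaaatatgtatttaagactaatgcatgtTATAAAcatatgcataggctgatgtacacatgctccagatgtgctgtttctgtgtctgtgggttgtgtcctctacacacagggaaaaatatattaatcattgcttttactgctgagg
Col1a2: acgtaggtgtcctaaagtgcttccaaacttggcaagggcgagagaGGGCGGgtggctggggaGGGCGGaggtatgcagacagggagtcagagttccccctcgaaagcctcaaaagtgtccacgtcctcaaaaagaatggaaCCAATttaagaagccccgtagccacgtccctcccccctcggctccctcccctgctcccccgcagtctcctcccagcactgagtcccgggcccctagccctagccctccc
Col11a1: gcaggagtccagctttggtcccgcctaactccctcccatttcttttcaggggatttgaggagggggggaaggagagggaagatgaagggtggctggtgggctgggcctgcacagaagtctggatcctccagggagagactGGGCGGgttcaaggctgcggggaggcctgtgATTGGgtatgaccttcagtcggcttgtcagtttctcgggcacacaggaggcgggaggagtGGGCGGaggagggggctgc
The Col3a1 window held TATAAA at position -117 from the start and no other of these motifs. The Col1a2 window held CCAAT at position -109 and GGGCGG at positions -205 and -188. The Col11a1 window held ATTGG, which is CCAAT on the other strand, at position -79 and GGGCGG at positions -110 and -19. Promoters of 35 of the 44 genes were found in the RefSeq table, in 38 windows. GGGCGG was in 57.9% of these collagen windows and in 32.7% of all 32851 windows of that length, CCAAT in 34.2% and 33.8%, and TATAAA in 13.2% and 12.4%. A match is a description of letters, and the genes with large differences did not share 1 of these motifs.

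Collagen transcripts were low in the control gonocytes. Of all 44 genes, 32 had a mean above 1 RPKM (CPM per kilobase of exon), and the median of the 42 that passed the filter on low counts was 1.71 RPKM, against 3.38 for the 16311 genes tested. The collagen with the highest level per length in the controls was Col22a1, a fibril-associated collagen known from tissue junctions, at 10.96 ± 1.11 RPKM (SD, n = 3). Next came Col18a1, the source of endostatin, at 8.13 ± 1.61 RPKM and Col5a1, a chain of the fibril-nucleating type V collagen, at 7.10 ± 1.25 RPKM, and these last 2 overlapped within their spread while Col22a1 lay above both in every control. Col3a1 ranked 25 and Col1a2 ranked 38 among the 44. These ranks used the union of exons as length and depend on that choice. Col25a1, ranked 7, has 12947 bp in its union of exons and 6701 bp in its longest transcript. For Col5a1 these lengths are 8490 and 8406 bp.

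Summed over the 44 genes, collagen transcripts stood at 893, 801 and 786 CPM in the controls and at 964, 3796 and 1442 CPM in Tex15-/- 1, 2 and 3. The Tex15-/- 2 library was 4.59 times the control mean, Tex15-/- 3 was 1.74 times and Tex15-/- 1 was 1.17 times. The mean was 827 ± 58.0 CPM in the controls and 2068 ± 1516 CPM in the Tex15-/- group (SD, n = 3 each), so the difference of 1241 CPM was smaller than the spread among the Tex15-/- libraries. It was 377 CPM without Tex15-/- 2 and 1793 CPM without Tex15-/- 1. All 3 lay above the controls, but Tex15-/- 1 did so by less than the range of the controls. In reads, the collagens took 4844, 3994 and 4289 of the control libraries and 4811, 20895 and 7580 of Tex15-/- 1, 2 and 3.

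**Figure D1:**
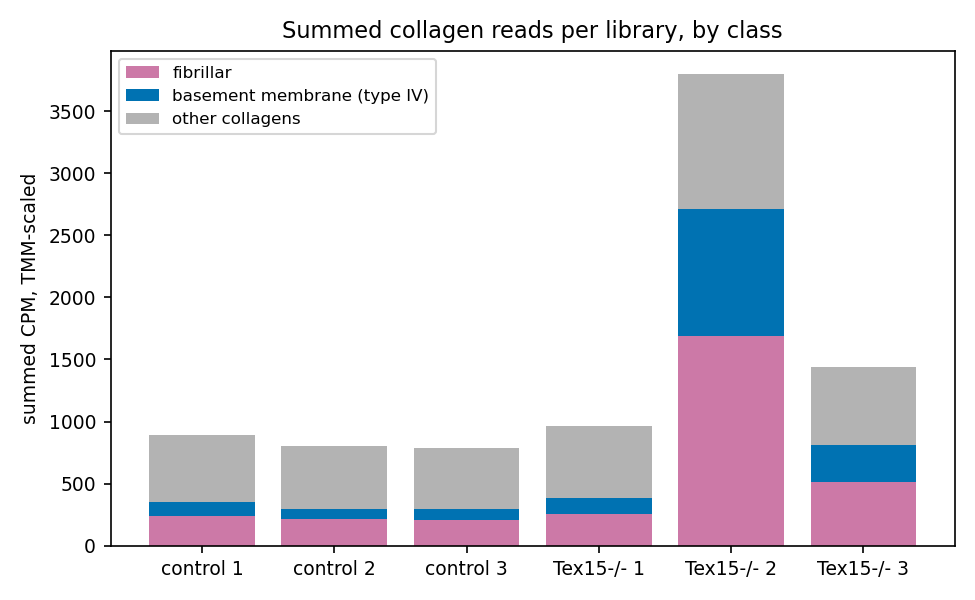
Summed CPM of the collagen genes in each of the 6 libraries, stacked by class (fibrillar, type IV and the other 27 genes). The controls and Tex15-/- 1 lie between 786 and 964 CPM, Tex15-/- 3 reaches 1442 and Tex15-/- 2 reaches 3796, with the added height mostly in the fibrillar and type IV classes.

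The make-up of the sum differed as well. Fibrillar collagens held 27.04%, 27.2% and 26.1% of collagen CPM in the controls and 26.7%, 44.4% and 35.4% in Tex15-/- 1, 2 and 3. Type IV chains held 12.4%, 9.44% and 11.9% in the controls and 13.0%, 27.04% and 20.8% in the Tex15-/- libraries. Tex15-/- 1 therefore had nearly the composition of the controls, and the other two had a larger part in these classes. Col22a1 had the most collagen CPM in every control and in Tex15-/- 1, with 11.3% to 12.9% of the sum, whereas Col4a1 had the most in Tex15-/- 2, with 17.0%, and in Tex15-/- 3, with 11.2%.

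The fibrillar genes fell into those with large differences in Tex15-/- 2 and 3 and those without. Col3a1 (ENSMUSG00000026043, chr1:45311538-45349706, plus strand, GRCm38) had 67, 87 and 79 reads in the controls and 50, 3301 and 663 in Tex15-/- 1, 2 and 3, or 12.4, 17.4 and 14.5 CPM against 10.02, 599.8 and 126 CPM. Tex15-/- 2 was 40.6 times the control mean and Tex15-/- 3 was 8.55 times, while Tex15-/- 1 lay below every control. Col1a2 (ENSMUSG00000029661, chr6:4504814-4541544, plus strand) stood at 5.90, 7.82 and 7.51 CPM in the controls and 7.82, 374 and 86.4 CPM in Tex15-/- 1, 2 and 3. That is 52.9 times the control mean in Tex15-/- 2 and 12.2 times in Tex15-/- 3, with Tex15-/- 1 within the range of the controls. Col1a1, which supplies the α1 chains of the type I trimer (ENSMUSG00000001506, chr11:94936224-94953042, plus strand), had 27.1, 30.1 and 22.9 CPM in the controls and 23.05, 383 and 99.1 CPM in the Tex15-/- libraries. Here too Tex15-/- 1 was among the controls and the other two were above all of them.

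In the fit over all genes, the log2 fold change of Col1a2 was 4.46 ± 1.01 (SE), that of Col3a1 was 4.06 ± 1.01 and that of Col1a1 was 2.66 ± 0.73, and the adjusted p was 0.46 for each (quasi-likelihood test of edgeR, Benjamini-Hochberg method). None of them passed the threshold of an adjusted p under 0.01. Without Tex15-/- 1 the same test gave log2 fold changes of 5.04, 4.64 and 3.19 with adjusted p of 8.5e-05, 0.00017 and 0.00060. Without Tex15-/- 2 it gave 2.74, 2.22 and 1.21 with adjusted p of 0.096, 0.23 and 0.46. The call on these genes therefore rested on which Tex15-/- libraries entered.

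Col5a1 and Col5a2, chains of the type V collagen that seeds type I fibrils, had smaller fold differences in Tex15-/- 2 and 3 than types I and III. Col5a1 (ENSMUSG00000026837, chr2:27886425-28039514) had 72.5, 53.1 and 55.2 CPM in the controls and 73.3, 178 and 80.3 CPM in Tex15-/- 1, 2 and 3. All 3 Tex15-/- libraries lay above the controls, Tex15-/- 1 by less than 1 CPM, and the log2 fold change was 0.88 ± 0.29 with an adjusted p of 0.46. Col5a2, outside the rule for values per library and named after its values were seen, was 7.65 times the control mean in Tex15-/- 2 and 2.50 times in Tex15-/- 3. It lies 24615 bp from Col3a1 on chromosome 1, in convergent orientation. Col27a1, also named after its values were seen, was at 1.90, 2.77 and 1.17 times the control mean in Tex15-/- 1, 2 and 3. It had only 14 to 74 reads per library. Tex15-/- 1 and 2 lay above every control for it, and Tex15-/- 3 was within their range.

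The remaining fibrillar genes, named after their values were seen, did not show the pattern of Col3a1, Col1a1 and Col1a2. Col11a2, a type XI chain, was at 20.1, 20.9 and 19.4 CPM in the controls and at 29.7, 6.54 and 13.1 CPM in Tex15-/- 1, 2 and 3, so that Tex15-/- 1 was above and the other two below every control. Col5a3 had the same order, with 1.45, 0.54 and 0.77 times the control mean. Col2a1, the cartilage collagen, was at 1.37, 0.56 and 0.96 times the control mean and Col11a1 at 1.12, 0.72 and 1.02 times. Col24a1 stayed between 0.90 and 1.11 times the control mean in the 3 libraries. Of the 11 fibrillar genes, 5 had an unadjusted p under 0.05, all with higher values in Tex15-/- (6.05% of all genes were higher and 3.15% lower at that p), and the median log2 fold change was 0.88.

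Type IV collagen comes as 3 gene pairs, each transcribed in opposite directions from a shared region. Col4a1 (ENSMUSG00000031502, chr8:11198423-11312826, minus strand) and Col4a2 (ENSMUSG00000031503, chr8:11312805-11449287, plus strand) make the common form of the basement membrane network, and their RefSeq starts are 21 bp apart. Col4a1 had 44.4, 20.9 and 26.9 CPM in the controls and 44.3, 645 and 161 CPM in Tex15-/- 1, 2 and 3. Col4a2 had 30.2, 21.3 and 28.2 CPM in the controls and 34.9, 312 and 103 CPM in the Tex15-/- libraries. Both were above every control in Tex15-/- 2 and 3, at 21.0 and 5.24 times the control mean for Col4a1 and at 11.7 and 3.87 times for Col4a2. Their annotated spans overlap at the starts, and whether reads were counted by strand is not given in the sources used here, so reads of the overlap are uncertain. The log2 fold changes were 3.20 ± 0.75 and 2.50 ± 0.59 (SE), both with an adjusted p of 0.46 with all libraries and with 0.00048 and 0.00036 without Tex15-/- 1. Without Tex15-/- 2 the log2 fold changes were 1.74 and 1.38, with an adjusted p of 0.096 and 0.11.

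The other 2 pairs, named after their values were seen, differed less. Col4a5 stood at 9.22, 8.02 and 7.33 CPM in the controls and at 16.4, 25.4 and 12.2 CPM in Tex15-/- 1, 2 and 3, above every control in each. It had 40 to 50 reads in the controls, and its log2 fold change was 1.14 ± 0.30 with an adjusted p of 0.46 by edgeR. Its partner Col4a6 had only 5 to 25 reads per library, and its groups overlapped. Col4a4 was at 1.90 times the control mean in Tex15-/- 2 but 0.94 times in Tex15-/- 3, and Col4a3, whose annotated start is 72 bp away, was at 0.74 and 0.62 times. The members of 1 pair thus stood on opposite sides of the control level in Tex15-/- 2. Of the 6 type IV genes, 3 had an unadjusted p under 0.05, all higher in Tex15-/- against the same 6.05% of all genes, and the median log2 fold change was 0.76.

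**Figure D2:**
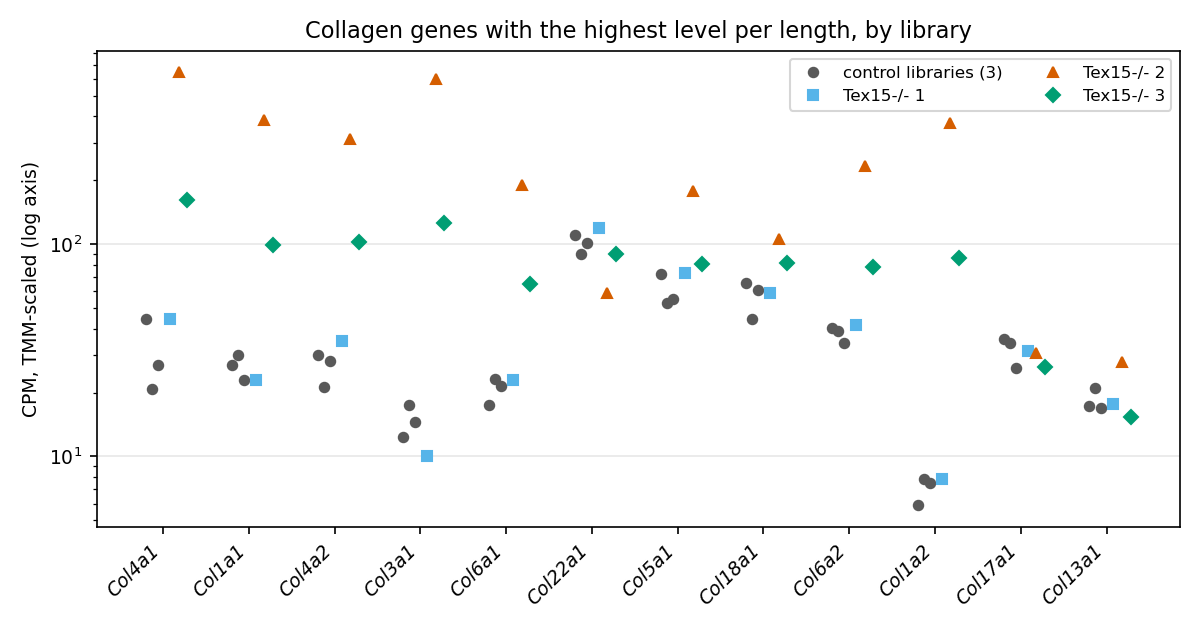
CPM in each library (log axis) for the 12 collagen genes with the highest mean RPKM over the 6 libraries, with controls in grey and each Tex15-/- library in its own symbol. For Col4a1, Col1a1, Col4a2, Col3a1, Col6a1, Col6a2 and Col1a2 the Tex15-/- 1 symbol lies with or just above the controls, or for Col3a1 just below, and Tex15-/- 2 lies highest, up to 645 CPM for Col4a1.

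Type VI collagen forms beaded filaments next to basement membranes, from the α1, α2 and α3 chains. Col6a1 (ENSMUSG00000001119, chr10:76708792-76726168, minus strand) had 17.5, 23.3 and 21.4 CPM in the controls and 22.8, 190 and 64.9 CPM in Tex15-/- 1, 2 and 3. Col6a2 (ENSMUSG00000020241, chr10:76595762-76623630, minus strand) had 40.4, 38.9 and 34.3 CPM in the controls and 41.7, 235 and 77.8 CPM in the Tex15-/- libraries. For both, Tex15-/- 2 and 3 stood clear of the controls and Tex15-/- 1 was at their upper end. Col6a3, named after its values were seen, followed with 1.56, 4.49 and 1.77 times the control mean, and its adjusted p of 0.035 by DESeq2 was the lowest of the collagens by that tool with all libraries. In edgeR's test the log2 fold changes of Col6a1, Col6a2 and Col6a3 were 2.16 ± 0.57, 1.64 ± 0.48 and 1.38 ± 0.37, with an adjusted p of 0.46 each. The later-found chains Col6a4, Col6a5 and Col6a6, a tandem cluster on chromosome 9, stayed between 0.67 and 1.40 times the control mean in every Tex15-/- library.

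Of the multiplexins, which sit in basement membranes, Col18a1 (ENSMUSG00000001435, chr10:77052178-77166548, minus strand) had 66.0, 44.3 and 60.8 CPM in the controls and 59.1, 106 and 81.3 CPM in Tex15-/- 1, 2 and 3. Col15a1, named after its values were seen, had 4.24, 3.21 and 4.76 CPM in the controls and 6.21, 80.7 and 23.8 CPM in the Tex15-/- libraries, on 16 to 31 reads in the controls and Tex15-/- 1. It was above every control in all 3, at 19.8 times the control mean in Tex15-/- 2, and its log2 fold change was 3.17 ± 0.73 (edgeR, adjusted p = 0.46). The log2 fold change of Col18a1 was 0.53 ± 0.21 with an adjusted p of 0.49.

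Summed over their members, fibril-associated and transmembrane collagens stayed near the controls. Col22a1 (ENSMUSG00000079022, chr15:71795795-72034227, minus strand) had 111, 90.2 and 102 CPM in the controls and 119, 59.0 and 90.4 CPM in Tex15-/- 1, 2 and 3. Its lowest value was in Tex15-/- 2, where type I and III collagens were highest, and its log2 fold change was -0.17 ± 0.21 with an adjusted p of 0.79 by edgeR. Col17a1, the hemidesmosome collagen (ENSMUSG00000025064, chr19:47646344-47692094, minus strand), had 35.9, 34.1 and 26.2 CPM in the controls and 31.3, 30.7 and 26.3 CPM in the Tex15-/- libraries, all within the range of the controls. Col13a1, a transmembrane collagen of the neuromuscular junction (ENSMUSG00000058806, chr10:61838236-61979108, minus strand), had 17.3, 21.1 and 16.9 CPM in the controls and 17.6, 27.8 and 15.4 CPM in the Tex15-/- libraries, on either side of the controls. Summed, the 9 fibril-associated genes were at 1.12, 1.10 and 0.98 times the control mean and the 4 transmembrane genes at 1.04, 1.10 and 0.81 times. The control mean was 101 CPM for Col22a1 and 167 CPM for the fibril-associated sum. In Tex15-/- 2 Col22a1 was 41.8 CPM below its control mean, while the sum was 17.2 CPM above, so Col22a1 offset higher values of other members.

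Within these classes single genes still differed, and they are named after their values were seen. Col16a1 was at 2.77 times the control mean in Tex15-/- 2 and 1.35 times in Tex15-/- 3, and Col9a2 at 1.75, 2.78 and 1.58 times in Tex15-/- 1, 2 and 3. Col12a1 was at 0.46, 1.97 and 0.54 times in Tex15-/- 1, 2 and 3, below every control in Tex15-/- 1 and 3, and Col14a1 was at 0.96, 1.91 and 0.80 times. Col23a1 was at 2.09 times in Tex15-/- 2 and 1.19 times in Tex15-/- 3. Col25a1 was at 0.83 and 0.71 times in these libraries, below every control in both. Col9a1, Col9a3, Col19a1 and Col20a1 had at most 71 reads in any library and ranged from 0.43 to 2.07 times the control mean. Col26a1 was above every control in each Tex15-/- library, at 1.47, 4.04 and 2.08 times. The other genes, Col7a1, Col8a2 and Col28a1, stayed between 0.73 and 1.80 times, and Col8a1 and Col10a1, with at most 10 reads in any library, were not tested.

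**Figure D3:**
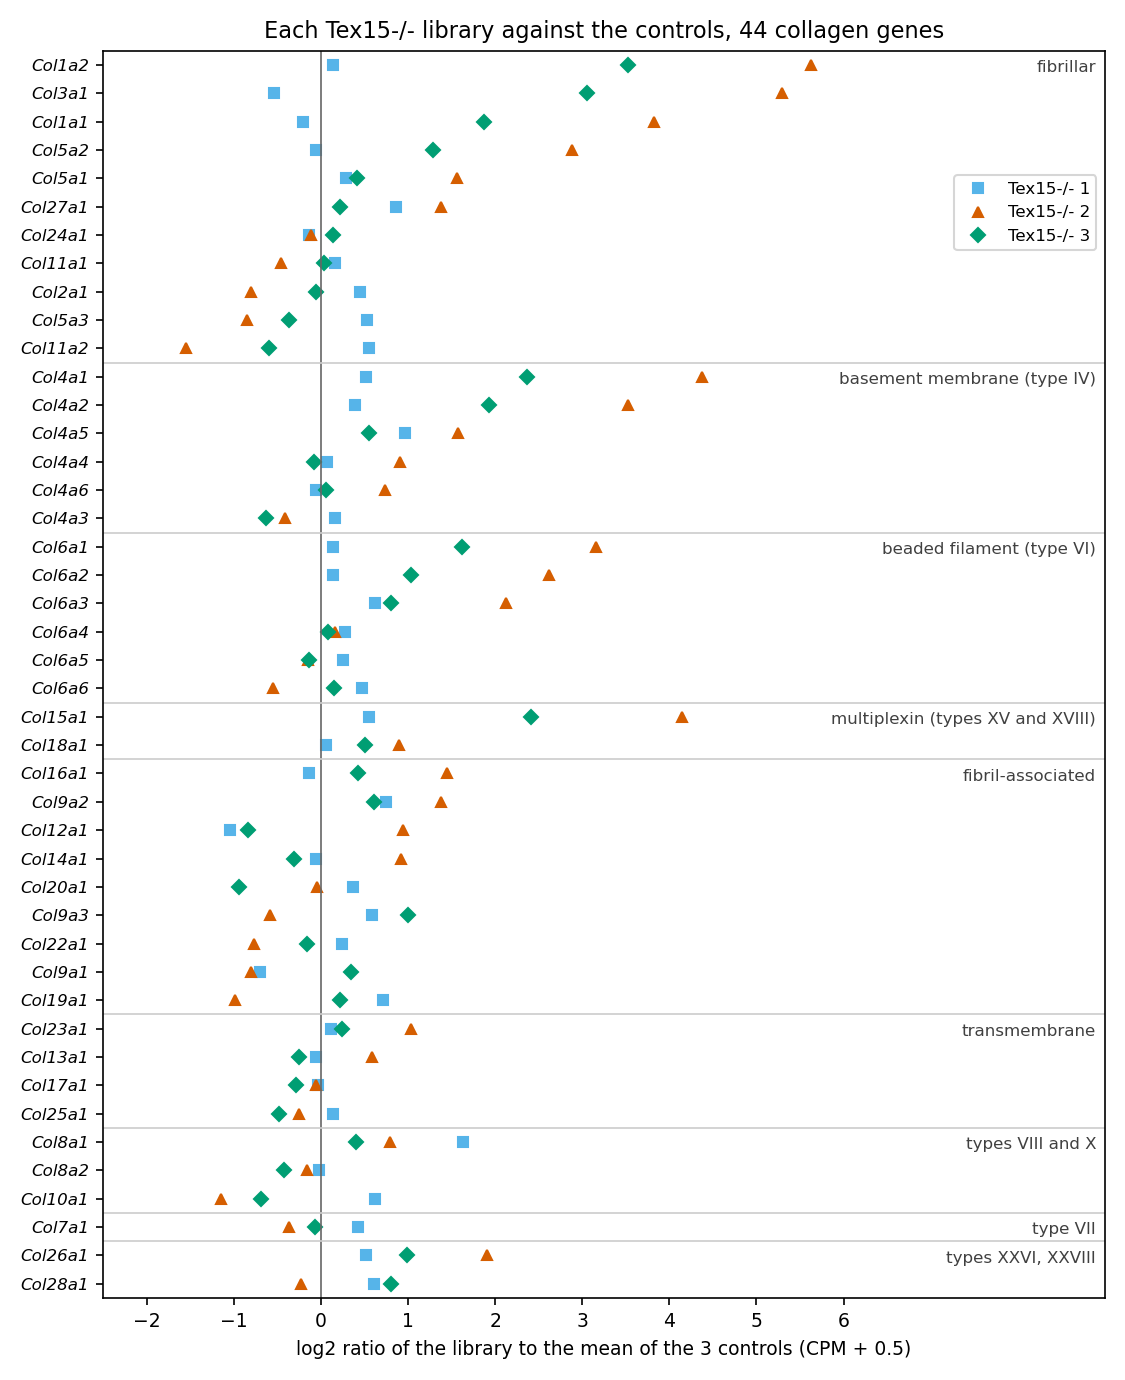
Log2 ratio of each Tex15-/- library to the mean of the 3 controls, on CPM with 0.5 added, for all 44 genes grouped by class and ordered within a class by Tex15-/- 2. Ratios of Tex15-/- 2 reach 5.63 for Col1a2, and those over 3 lie in the fibrillar, type IV, type VI and multiplexin classes, with Tex15-/- 3 lower for each of these genes. Ratios of Tex15-/- 1 run from -1.05 for Col12a1 to 1.63 for Col8a1, and some genes, Col9a3, Col12a1 and Col28a1 among them, stand on opposite sides of 0 in Tex15-/- 2 and 3.

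Counted over the 44 genes, 2 were over 2 times the control mean in Tex15-/- 1, 18 in Tex15-/- 2 and 11 in Tex15-/- 3. Among all 16311 genes tested the shares were 1.55%, 8.1% and 3.63%, and of the 42 collagens tested the counts were 1, 17 and 11. Under 0.5 times the control mean were 1, 4 and 2 collagens, where the shares of all genes were 2.33%, 12.9% and 7.54%. Both Tex15-/- 2 and 3 were over 2 times the control mean for 10 collagens, namely Col1a1, Col1a2, Col3a1, Col5a2, Col4a1, Col4a2, Col6a1, Col6a2, Col15a1 and Col26a1, against 2.56% of all genes. With control 1 left out, the count for Tex15-/- 1 was 4, and with control 2 left out it was 1.

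All 3 Tex15-/- libraries lay above every control for 10 of the 44 collagens, of which 9 were tested, against 6.51% of all genes tested, and all 3 lay below for 0 collagens, against 6.68%. These 10 were Col4a2, Col4a5, Col5a1, Col6a2, Col6a3, Col6a4, Col8a1, Col9a2, Col15a1 and Col26a1, and did not include Col3a1, Col1a1, Col1a2 or Col4a1. Taken alone, Tex15-/- 1 was above every control for 24 collagens, against 23.1% of all genes, Tex15-/- 2 for 24, against 35.3%, and Tex15-/- 3 for 22, against 30.3%. Tex15-/- 2 and 3 were both above every control for 18, against 19.6%, and both below for 4, against 20.8%. Below every control were 2, 12 and 9 collagens in Tex15-/- 1, 2 and 3, against 24.1%, 36.5% and 30.6%. Tex15-/- 1 exceeded 2 times the control mean only for Col4a5 and Col8a1.

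In the quasi-likelihood test of edgeR after Benjamini-Hochberg adjustment, 0 of the 42 collagens and 0 of all 16311 genes (0%) had an adjusted p under 0.01 between the groups. Tex15 itself, the disrupted gene, was not called either, with an adjusted p of 0.011, though DESeq2 gave it 3.0e-07. At an unadjusted p under 0.05 edgeR gave 15 collagens with higher values in Tex15-/- and 0 with lower values, against 6.05% and 3.15% of all genes. DESeq2 called 0 collagens at an adjusted p under 0.01, where 0.0613% of all genes were called as higher, and 1, Col6a3, at under 0.05, against 0.233% of all genes, and gave 16 an unadjusted p under 0.05, against 8.22% of all genes. The median log2 fold change was 0.35 over the 42 collagens and -0.00031 over all genes tested, with 29 positive and 13 negative. The median log2 ratio of the 42 tested collagens to the control mean was 0.20 in Tex15-/- 1, 0.81 in Tex15-/- 2 and 0.21 in Tex15-/- 3.

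Without Tex15-/- 1, 10 collagens had an adjusted p under 0.01, all higher, against 1.69% of the 17520 genes then tested with higher values. These were Col1a1, Col1a2, Col3a1, Col4a1, Col4a2, Col5a2, Col6a1, Col6a2, Col6a3 and Col15a1. With DESeq2 the count without Tex15-/- 1 was 12, against 2.31% of all genes, and with edgeR's newer dispersion estimate it was 9, against 1.55%, both chosen after seeing the data. Without Tex15-/- 2, 0 collagens were called by edgeR, with 0.00576% of all genes called as higher, and 16 had an unadjusted p under 0.05, against 5.71% of all genes. DESeq2 likewise called 0, with 0.0184% of all genes called as higher, and gave 11 an unadjusted p under 0.05, against 3.26%. With no filter on low counts and all 6 libraries, edgeR called 12 collagens, all higher, though the SE of Col3a1 was then 0.15. Of the 42446 genes then tested, 1.05% were called as higher, and most of these 42446 had too few reads to pass the filter. Libraries of a group are separate samples in their labels, but nothing says that each came from a different animal, so these p-values measure the spread between libraries only.

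Among the genes with the largest excess over the controls, Tex15-/- 2 and 3 could be set side by side. In CPM above the control mean, the net excess over the 44 genes was 2970 in Tex15-/- 2 and 616 in Tex15-/- 3, a ratio of 4.82. The 8 genes with the largest excess held 90.7% of the net excess in Tex15-/- 2, and their own ratios ran from 3.75 for Col4a2 to 5.88 for Col5a1, with a median of 4.82. Among them, Col3a1 was at 5.25, Col1a1 at 4.92, Col1a2 at 4.63 and Col4a1 at 4.72. Since the 8 held most of the net excess, their closeness to its ratio was partly built in. These 8 were chosen for their excess. Of genes with a smaller one, Col4a5, Col5a2, Col6a3, Col15a1, Col16a1 and Col23a1 had ratios of 3.89 to 5.82, while the ratio was 2.03 for Col18a1, 2.10 for Col6a4, 2.30 for Col8a1, 2.83 for Col26a1, 3.07 for Col9a2, 10.1 for Col27a1 and 15.8 for Col4a6. Col4a4, Col12a1, Col13a1 and Col14a1 were above the control mean in Tex15-/- 2 and below it in Tex15-/- 3, and Col6a6, Col9a1, Col9a3, Col11a1, Col19a1, Col24a1 and Col28a1 were the other way round.

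**Figure D4:**
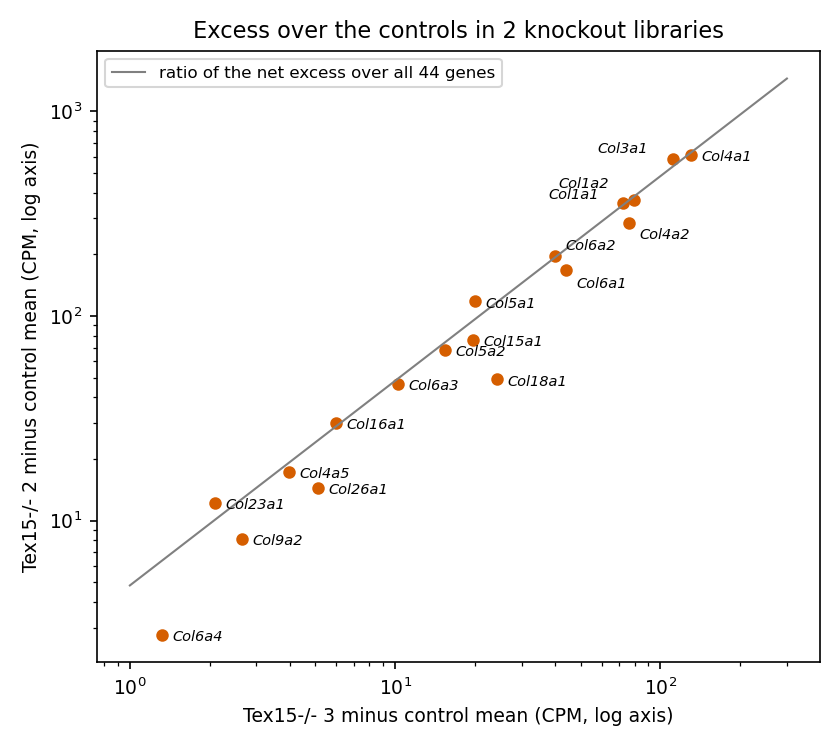
CPM above the control mean in Tex15-/- 2 against Tex15-/- 3 (both log axes) for the 18 collagen genes with more than 1 CPM of excess in both, with a line at the ratio of the net excess, 4.82. The 8 genes with the largest excess have ratios of 3.75 to 5.88, and Col18a1 and Col6a4 lie farthest below the line.

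Chains of the same trimer differed in their ratio between libraries. Per kilobase of exon, Col1a1 to Col1a2 was 8.70, 7.28 and 5.77 in the controls, 5.58 in Tex15-/- 1, 1.94 in Tex15-/- 2 and 2.17 in Tex15-/- 3. The type I trimer is usually built from 2 α1 chains and 1 α2 chain. With the length of the longest transcript in place of the union of exons the ratios were 4.14, 3.47 and 2.75 in the controls and 2.66, 0.92 and 1.03 in Tex15-/- 1, 2 and 3, so the level of the ratio depends on the length used. Col4a1 to Col4a2 ran from 0.85 to 1.30 in the controls and was 1.13, 1.83 and 1.39 in the Tex15-/- libraries.

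Summed markers of 4 other cell types moved with the collagens. Summed markers of interstitial progenitors and fibroblasts without Col3a1, 8 genes, were at 43.7, 50.9 and 53.5 CPM in the controls and at 51.9, 617 and 174 CPM in Tex15-/- 1, 2 and 3. Relative to the control mean these were 1.05, 12.5 and 3.53 times, beside 1.17, 4.59 and 1.74 times for the collagens and 1.16, 7.62 and 2.31 times for the fibrillar class. Foetal Leydig cell markers, 7 genes, were at 0.99, 15.2 and 4.71 times, Sertoli cell markers, 12 genes, at 0.87, 8.39 and 5.68 times and peritubular myoid markers, 6 genes, at 0.92, 3.88 and 1.70 times. In CPM, the Leydig list ran from 21.2 to 64.0 in the controls and from 38.7 to 596 in Tex15-/-, the Sertoli list from 18.8 to 19.8 and from 16.8 to 162, and the myoid list from 33.7 to 41.5 and from 35.1 to 148. In Tex15-/- 2, 8 of the 9 interstitial markers (Col3a1 included), all 7 Leydig, 10 of the 12 Sertoli and 5 of the 6 myoid markers were over 2 times the control mean, against 8.1% of all genes tested. Only 7 interstitial, 6 Leydig, 4 Sertoli and 5 myoid markers passed the filter on low counts, so the lists hold genes with fewer reads than those in that share. In sum, every one of these 4 lists was highest in Tex15-/- 2, lower in Tex15-/- 3 and near the control level in Tex15-/- 1, which is the order of the collagens. Single markers did not all keep that order. In Tex15-/- 3, 7 interstitial, 7 Leydig, 11 Sertoli and 2 myoid markers were over 2 times the control mean, against 3.63% of all genes tested. Ogn of the interstitial list, at 0.59 times, was below every control there. The Sertoli markers Ptgds, Dhh, Fshr and Cldn11, named after their values were seen, were higher in Tex15-/- 3 than in Tex15-/- 2. Markers also varied in Tex15-/- 1. There 3 Sertoli markers and 0 of the other lists were over 2 times the control mean, against 1.55% of all genes tested. Under 0.5 times were 4 Sertoli, 2 interstitial, 1 myoid and 0 Leydig markers, against 2.33%.

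Endothelial markers, 7 genes, were in sum at 0.79, 3.64 and 1.02 times the control mean. In Tex15-/- 3 the members differed, with Kdr at 2.65, Emcn at 2.34 and Tek at 1.26 times, each above every control, Tie1 at 1.29 and Esam at 1.26 times within the controls' range, and Cdh5 at 0.77 and Pecam1 at 0.67 times, below every control. Macrophage markers, 6 genes, were at 0.92, 3.14 and 4.12 times, highest in Tex15-/- 3. Germ cell markers were at 0.97, 0.99 and 1.01 times in sum, with 0 of the 15 over 2 times the control mean in any Tex15-/- library and 0, 2 and 1 under 0.5 times, against 2.33%, 12.9% and 7.54% of all genes. Of the 14 tested, Dazl and Dppa3, named after their values were seen, had an unadjusted p under 0.05 by edgeR, both lower in Tex15-/-, as were 3.15% of all genes, and 0 were higher. Dazl was at 0.87, 0.75 and 0.86 times, below every control in each Tex15-/- library, and Dppa3 at 0.84, 0.34 and 0.75 times. Also below every control in each were Tex101, at 0.85, 0.60 and 0.98 times, and Nanos3, at 0.56, 0.61 and 0.48 times on 9 to 23 reads per library. Of all genes tested, 6.68% were below every control in all 3 Tex15-/- libraries. Of defining markers, Insl3 of Leydig cells was at 0 in every control and in Tex15-/- 1, Fshr of Sertoli cells was at 0 in controls 1 and 2, Wt1 and Sox8 were at 0 in control 3, and Tcf21 of interstitial cells was at 0 in Tex15-/- 1. Tagln of myoid cells was at 0 in control 2 and Tex15-/- 3. Of macrophage markers C1qb was at 0 in control 3 and C1qa in Tex15-/- 1. The excess ratio of Tex15-/- 2 to 3 was 4.55 for the interstitial list, 3.84 for Leydig, 4.14 for myoid, 1.58 for Sertoli and 0.69 for macrophage markers, next to 4.82 for the collagens. For endothelial markers it was 168, as their excess in Tex15-/- 3 was only 0.98 CPM. The part of such cells in the collagen values was not tested, and in these pools more cells of a type and more RNA per cell cannot be told apart.

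**Figure D5:**
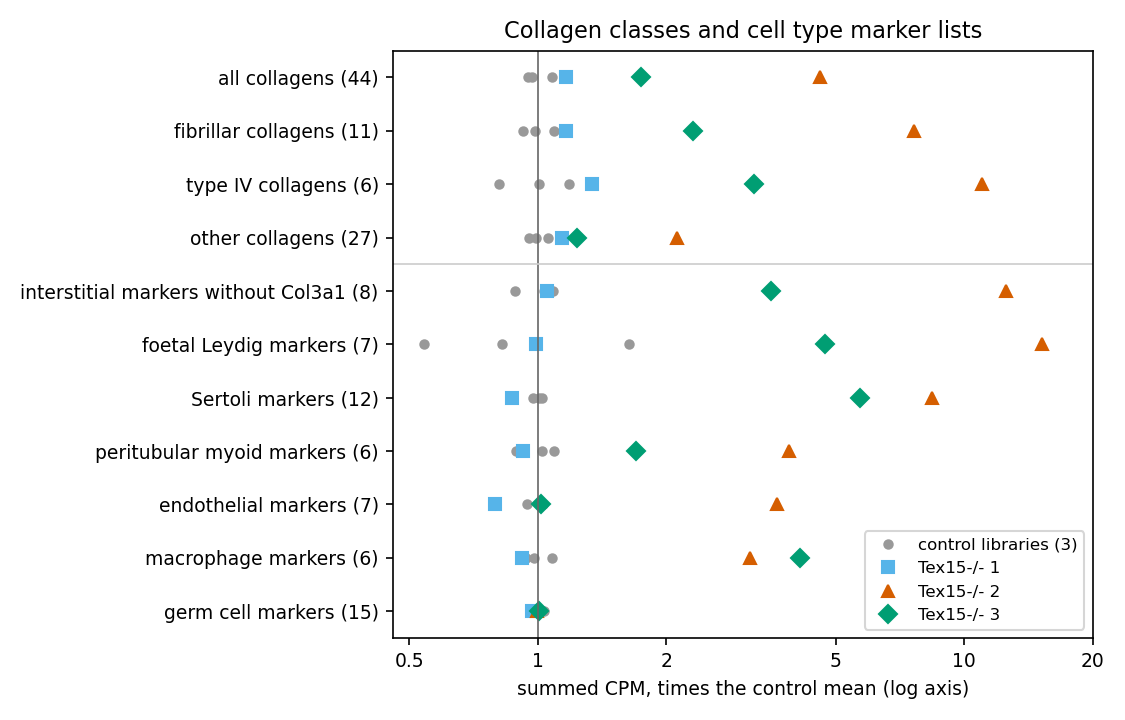
Summed CPM relative to the control mean (log axis) for all collagens, the 3 collagen classes and 7 lists of cell type markers, with the number of genes in parentheses, the 3 controls in grey and each Tex15-/- library in its own symbol. Germ cell markers stay at 0.97 to 1.01 times, while interstitial, Leydig, Sertoli and myoid markers separate Tex15-/- 2 and 3 from the controls in the order in which the collagens do.

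Reads outside annotated features moved the other way. They made up 20.4%, 24.4% and 23.7% of the tabulated total in the controls and 23.3%, 11.1% and 16.04% in Tex15-/- 1, 2 and 3, lowest in the library with the most collagen. Reads not aligned made up 32.8% to 37.1% in the controls and 36.9%, 42.4% and 38.8% in Tex15-/- 1, 2 and 3, and genes with at least 1 read numbered 30770 to 32592 in the controls and 32972, 28056 and 29770, so that Tex15-/- 2 and 3 lay outside the controls in both. Of the 42 collagens tested, 9 lay below every control in Tex15-/- 2 and above every control in Tex15-/- 1, against 7.95% of all genes tested. Those 9 were Col22a1, Col5a3, Col11a2, Col11a1, Col9a3, Col2a1, Col28a1, Col6a6 and Col7a1. The part of these measures in the collagen values was not tested.

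Genes that act on collagens were taken from lists of 85, of which 79 were tested. Between the groups 0 of them had an adjusted p under 0.01 by edgeR, and DESeq2 called 1, the elastin gene Eln, higher in Tex15-/-, against 0.0613% of all genes. At an unadjusted p under 0.05, 29 were higher and 0 lower in Tex15-/-, against 6.05% and 3.15% of all genes, and the median log2 fold change was 0.48. Over 2 times the control mean were 2, 40 and 19 of the 85 in Tex15-/- 1, 2 and 3, against 1.55%, 8.1% and 3.63% of the genes tested. Without Tex15-/- 1, 15 were called, all higher, against 1.69% of all genes, and without Tex15-/- 2, 0 were called, against 0.00576%.

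In the single lists, counts at an unadjusted p under 0.05 are again to be read against 6.05% of all genes, and counts over 2 times the control mean against 8.1% in Tex15-/- 2 and 3.63% in Tex15-/- 3. Of 20 genes for biosynthesis and folding, 6 had an unadjusted p under 0.05, all higher, and the sum was at 1.02, 1.25 and 1.12 times the control mean in Tex15-/- 1, 2 and 3. Over 2 times the control mean were 7 of the 20 in Tex15-/- 2 and 3 in Tex15-/- 3. The 3 with the highest mean CPM act on many proteins beside collagen, and none of these 3 was over 2 times the control mean. P4hb, a protein disulphide isomerase and subunit of prolyl 4-hydroxylase, had 466, 446 and 460 CPM in the controls and 463, 452 and 513 CPM in the Tex15-/- libraries. Ppib, the folding enzyme cyclophilin B, was at 0.87, 0.89 and 0.90 times the control mean, below every control in all 3, and Mia3, which helps to load procollagen for export, at 1.12, 1.22 and 1.14 times, above every control in all 3. Serpinh1, the collagen chaperone HSP47, named after its values were seen, had 12.4, 14.8 and 17.6 CPM in the controls and 18.04, 160.3 and 42.6 CPM in Tex15-/- 1, 2 and 3, all above every control. Of 14 processing and crosslinking genes, 6 had an unadjusted p under 0.05, all higher. Of the 3 of the 14 with the highest mean CPM, Pxdn, the peroxidase that crosslinks type IV collagen, was at 1.05, 2.29 and 1.44 times, Adamts3, a procollagen N-proteinase, at 1.04, 0.74 and 1.00 times, and Tgm2, a transglutaminase, at 0.69, 2.97 and 1.09 times.

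Of 10 receptors, 9 were tested and 0 had an unadjusted p under 0.05, with log2 fold changes from -0.11 to 1.23, while 3 of the 10 were over 2 times the control mean in Tex15-/- 2, against 8.1% of all genes. The 3 with the highest mean CPM follow. Itgb1, the β1 integrin subunit, was at 1.04, 1.53 and 1.13 times the control mean, Ddr1, a discoidin domain receptor, at 1.18, 0.64 and 1.03 times and Itga11 at 1.04, 1.11 and 0.95 times. Of 15 basement membrane partners, 5 had an unadjusted p under 0.05, all higher. Laminin β1, encoded by Lamb1, had 526, 503 and 496 CPM in the controls and 561, 459 and 595 CPM in Tex15-/- 1, 2 and 3, so that it was abundant in control gonocytes and lowest in the library where Col4a1 was highest. Lamc1 was at 1.07, 1.31 and 1.09 times and Hspg2, which encodes perlecan, at 1.18, 3.46 and 1.21 times.

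Of 17 interstitial matrix partners, 9 had an unadjusted p under 0.05, all higher, though Dcn and Lum are also on the interstitial marker list. Sparc, which encodes a collagen-binding protein, had 18.1, 14.4 and 20.2 CPM in the controls and 20.8, 166 and 60.9 CPM in Tex15-/- 1, 2 and 3, and its log2 fold change was 2.23 ± 0.56 (edgeR, adjusted p = 0.46). Tex15-/- 2 and 3 stood apart from the controls, at 9.45 and 3.47 times their mean. Fn1, fibronectin, was at 1.14, 1.83 and 1.21 times and Fbn2, fibrillin 2, at 0.98, 1.32 and 0.91 times. Of 9 proteases and inhibitors, 3 had an unadjusted p under 0.05, all higher. Mmp14, a membrane collagenase, was at 0.81, 12.01 and 2.93 times the control mean, Mmp2, a gelatinase, at 1.05, 1.74 and 1.60 times and Timp3, a protease inhibitor bound to matrix, at 0.63, 3.89 and 1.48 times. Mmp14 had only 20 to 26 reads in the controls, and its adjusted p was 0.46 by edgeR. The mean that placed it among the 3 listed includes Tex15-/- 2, at 50.7 CPM against 3.69 to 4.76 CPM in the controls.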

How the data were processed

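RNA-seq counts of 3 control and 3 Tex15-/- libraries of sorted E16.5 gonocytes were used. Reads were aligned by the authors with HISAT2 to GRCm38, and counted with HTSeq 0.11.1. The deposited values are whole-number read counts per Ensembl gene, without normalisation. Reads in rows that name no gene, 61.3% to 67.3% of each table, were left out of library sizes. Whether counting used strand is not given in the sources used here, so overlapping and antisense genes are uncertain. Of 54838 identifiers, 54723 (99.8%) were matched to a symbol in GENCODE for GRCm38. Repeat and small RNA tables were not used here, since the small RNA tables give no gene names for collagen transcripts.

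Group comparisons used edgeR 4.0.16 under R 4.3.3 (TMM, filterByExpr with a minimum count of 10 and a total of 15, quasi-likelihood test in its older, legacy form, Benjamini-Hochberg over all genes tested), with a call at an adjusted p under 0.01. DESeq2 1.42.0 was an alternative, while the authors used version 1.26.0. The others were no TMM factors, other filters and thresholds, a newer dispersion estimate, a replicate block and each library left out. CPM used TMM-scaled sizes, and RPKM the union of exons. A ratio of a library to the control mean was taken on CPM, with 0.5 added on the log2 scale only. The script for the test was checked on simulated counts. Intervals were not computed for single libraries, and SE is the size of the log2 fold change divided by the root of the F statistic.

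Values per library are given by rule for the 12 collagens with the highest mean RPKM over all 6 libraries and for Col3a1. In each of the lists of related genes they are given for the 3 genes with the highest mean CPM. Both means include the Tex15-/- libraries. Col3a1 and Col1a2, ranked 25 and 38 by RPKM in the controls, are among the 12 through Tex15-/- 2 and 3. Col25a1 and Col11a2, ranked 7 and 12 in the controls, are not among the 12. A marker list of a further cell type is not reported here. The collagens, the lists and the tests were chosen with earlier results of these data known.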

Additional observations from a re-analysis of the deposited data

How the results depend on the processing

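The count of collagens with an adjusted p under 0.01 stayed at 0 without TMM factors, with DESeq2, with at least 10 counts in every library, with the newer dispersion estimate, with an adjusted p under 0.05 and with an added limit on the fold change. With no filter it was 12, with 23 of the related genes and 488 of the 42446 genes then tested, and the SE of Col3a1 was then 0.15 instead of 1.01. The cause was not tested. Leaving out 1 library at a time gave 0 to 10 collagens, 0 to 15 related genes and 0 to 388 of all genes, with the highest values without Tex15-/- 1 and the count of all genes at 5 without Tex15-/- 2 and 1 without control 1. Of all genes, 3 had an adjusted p under 0.05, 14 passed with DESeq2 (with 1 related gene), 1 with at least 10 counts in every library and 2 with the newer estimate.

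Alternatives chosen after seeing the data were DESeq2 without Tex15-/- 1 (12 collagens, 18 related genes, 593 genes) or without Tex15-/- 2 (7 genes, 0 collagens) and the newer estimate without Tex15-/- 1 (9 collagens, 11 related genes, 353 genes). The same holds for the count over 2 times the control mean, which for Tex15-/- 1 was 1 instead of 2 without TMM factors and 1 to 4 with a control left out, while it stayed at 18 to 20 for Tex15-/- 2 and 9 to 11 for Tex15-/- 3. With 1 library left out, the log2 fold change of Col22a1 ran from -0.42 to 0.057 and that of Col13a1 from -0.15 to 0.32, both changing sign without Tex15-/- 2 (0.052 and -0.16 with DESeq2). Control and Tex15-/- libraries with the same number did not deviate together (correlations of -0.14, -0.043 and -0.0075 across genes). With 3 libraries per group these correlations cannot decide whether the numbers pair them. With the replicate block 0 collagens and 0 of all 16311 genes were called. Depth limits genes such as Col8a1 and Col10a1, with at most 10 reads. The planned description of small RNA reads on collagen genes was not run.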
